A study of Homo sapiens with 20 samples.

Results

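The constitutive broad H3K4me3 domains of WM164 cells are stretches of chromatin that carried long H3K4me3 in every library of the series. Members were chosen by their covered length: peaks of the 10 lists on the 22 autosomes and X were joined across gaps of up to 1000 bp, and a joined region was kept when at least 5000 bp of it lay under peaks in each of the 10 lists. This gave 591 domains of 31428 merged regions (1.88%), or 4.89% of the 12087 regions with a peak in all 10 libraries. The minimum was the same in every list and group. A domain that shrank under the minimum in any list is not among them, which limits the narrowing that can be seen: 226 regions fell short in both resistant lists and in no other list.

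WM164 is a human melanoma line with a mutant BRAF kinase, and all 5 groups of 2 libraries share that background. Colony cells were kept in 50 nM dabrafenib, a BRAF inhibitor, for 45 days, resistant cells at that dose for over 90 days, and parental cells were given DMSO for 3 days. A second arm overexpressed the NRAS Q61K oncoprotein, an activated RAS protein upstream of BRAF, or GFP. The sources used here do not give how the transgenes were delivered and driven, nor whether resistant cells or replicates came from separate clones or cultures. The p-values therefore cover no more than the spread between these libraries, which may be technical. Colony and resistant cells were both compared with the same 2 parental libraries.

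The H3K4me3 mark (lysine 4 of histone H3 carrying 3 methyl groups) sits at the starts of active genes, where it is laid down by the SETD1 and MLL methyltransferase complexes, part of which binds unmethylated CG dinucleotides. Most promoters carry a narrow zone of the mark. Broad domains are known from many cell types at genes that define cell identity, at tumour suppressors and at highly transcribed housekeeping genes.

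Positions are in GRCh37, and each domain is named by position and chromosome band. No gene annotation of that build was used here, so which gene starts a domain holds was not computed. Gene names below come from general knowledge of where these loci lie and are background. All 72 names used or checked lay on the domain's chromosome, in the same order along it, in RefSeq's gene table of GRCh38.p14. The labelled cell type was therefore not tested against marker genes. As background, domains lie at the loci of SOX10 (22q13.1), TFAP2A (6p24.3), PMEL (12q13.2) and TYR (11q14.3), genes of the melanocyte lineage and of pigment synthesis.

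Promoter sequences are shown for SPRY4, LEF1 and TYR, background names of 3 of the 5 domains at which colony and resistant cells moved in opposite directions from parental cells, since each of the 3 has a single entry in the RefSeq promoter table of GRCh38.p14. Of the 72 names, 51 have an entry there. Each sequence is the 250 bases before the listed start, 5′ to 3′ on the gene's strand. Its coordinates belong to GRCh38.p14 and cannot be set beside the GRCh37 positions of the domains. Capitals mark CG dinucleotides and, in TYR, also CATGTG, a 6-letter word known as the core of the site bound by the melanocyte factor MITF in that promoter.
SPRY4, chr5:142324248-142324497, minus strand: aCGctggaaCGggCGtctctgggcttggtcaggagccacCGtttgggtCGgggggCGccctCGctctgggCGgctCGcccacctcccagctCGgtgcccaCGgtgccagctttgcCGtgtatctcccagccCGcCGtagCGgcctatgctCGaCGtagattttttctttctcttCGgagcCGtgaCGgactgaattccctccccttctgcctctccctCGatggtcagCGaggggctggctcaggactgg
LEF1, chr4:108166302-108166551, minus strand: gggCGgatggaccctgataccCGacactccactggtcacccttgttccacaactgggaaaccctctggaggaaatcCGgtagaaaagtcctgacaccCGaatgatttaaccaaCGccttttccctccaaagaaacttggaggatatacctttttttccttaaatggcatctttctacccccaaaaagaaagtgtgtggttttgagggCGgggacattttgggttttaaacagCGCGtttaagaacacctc
TYR, chr11:89177625-89177874, plus strand: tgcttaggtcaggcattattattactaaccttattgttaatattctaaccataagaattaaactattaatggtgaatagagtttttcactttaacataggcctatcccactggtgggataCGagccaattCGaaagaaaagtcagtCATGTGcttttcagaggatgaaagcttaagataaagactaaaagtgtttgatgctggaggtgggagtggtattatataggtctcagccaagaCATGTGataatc
The SPRY4 window held 22 CG dinucleotides, the LEF1 window 8 and the TYR window 2, against a median of 11 over the 35116 windows of the table. CATGTG or its reverse complement CACATG occurred 2 times in the TYR window and in neither of the others, and 9.42% of all windows held it on either strand. A match is a description of these letters only.

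The lists hold no read counts, so depth is unknown. On the autosomes and X the lists held 21408 and 21573 peaks in colony, 19401 and 19111 in resistant and 29258 and 30065 in parental cells, and 40648 and 37649 in NRAS Q61K and 41806 and 45376 in GFP cells. The shortest peak, set by the peak caller, was 282 to 284 bp in colony, 255 to 256 bp in resistant, 180 to 202 bp in parental, 151 to 153 bp in NRAS Q61K and 142 to 153 bp in GFP lists. The part of these differences in the widths was not tested.

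The domains were wide and, at the median, ranked high by their strongest peak. They covered 4.70 and 4.75 Mb in colony, 4.26 and 4.19 Mb in resistant, 4.83 and 4.56 Mb in parental, 5.05 and 4.84 Mb in NRAS Q61K and 5.05 and 4.97 Mb in GFP libraries, 10.4% to 12.3% of all bases under peaks. The median domain spanned 9413 bp. By the authors' −log10 q, a readout that the choice did not use, the strongest peak of a domain ranked at a median of 3.91% to 9.27% from the top of its list, against 14.9% to 34.5% for the other regions with a peak in all 10 libraries. Between 52.6% (resistant 2) and 83.6% (GFP 2) of domains had a peak in the top 10% of the list. The widest domain, at 1q42.13, ranked at only 52.0% and 51.5% in colony and 45.3% and 48.7% in resistant lists. Each rank is the best over all peaks of a region, which favours regions with many peaks. Domains were cut into more pieces in the longer lists: 9.14% (GFP 2) to 33.0% (resistant 1) of them were a single peak, and the mean number of peaks per domain was 2.39 to 2.48 in the drug groups, 2.78 and 3.22 in parental, and 3.65 to 4.20 in the transgene libraries. The widest peak still held a median of 76.3% to 90.8% of a domain's covered bases.

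Domains were spread over all chromosomes analysed, from 73 on chromosome 1 to 6 each on chromosomes 21 and X. Per 10 Mb of chromosome they were most frequent on chromosome 17 (5.17) and chromosome 22 (4.48) and least frequent on X (0.386). Among regions with a peak in all 10 libraries, 7.49% of those on chromosome 22 were domains and 1.45% of those on X. Unstained bands held 363 of the 591 domains, and 3 lay in centromeric bands. The shares of other regions in these bands were not computed.

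Of the 10 widest domains, the first 5 by mean covered length lay at arrays, clusters of genes or pericentromeric repeats. The widest by mean covered length lay at 1q42.13 (chromosome 1, 228744024 to 228783184), known as the site of the array of 5S ribosomal RNA genes, with 25739 and 28666 bp under peaks in colony, 36876 and 36295 bp in resistant, 30660 and 22114 bp in parental, 35791 and 34228 bp in NRAS Q61K and 36014 and 36684 bp in GFP libraries. Copies of that array share reads, so its width is uncertain. Next came 1q21.2 (chromosome 1, 149801024 to 149835981), a cluster of replication-dependent histone genes, with 25365 to 33609 bp over the 10 libraries, and 1q23.3 (chromosome 1, 161408681 to 161442472), a cluster of transfer RNA genes, with 15689 to 32241 bp. Domains at 10q11.21 (11779 to 34113 bp) and 16q11.2 (20256 to 26082 bp) lie beside centromeres, where repeats share reads. The domain at 22q13.31 (chromosome 22, 46459875 to 46482433), at the host gene of let-7 microRNAs MIRLET7BHG, held 20963 and 21314 bp in colony, 18323 and 18281 bp in resistant and 21008 to 21359 bp in the other 6 libraries. The rest of the 10 widest were at 6p21.33 (HSPA1A, a heat shock chaperone; 15671 to 22641 bp), 17q25.3 (BAHCC1; 18031 to 20651 bp), 17p13.1 (DVL2, a WNT signal transducer; 16449 to 20765 bp) and 17q24.3 (13040 to 21339 bp).

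The domains just inside the minimum were at chromosome 19, 47729526 to 47735601, with 5002 bp in its lowest list (resistant 2), chromosome 22, 20001735 to 20011128, with 5011 bp (GFP 2), and chromosome 17, 62499145 to 62506209, with 5012 bp (parental 2). Just outside were chromosome 4, 124316726 to 124326602, with 4999 bp in colony 1, chromosome 10, 103573571 to 103580959, with 4996 bp in resistant 1, and chromosome 12, 6640317 to 6648995, with 4991 bp in colony 1. In all, 137 regions fell short in 1 list only, of which 63 in resistant 2 and 35 in resistant 1.

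Widths were compared with limma on log2(bases under peaks + 200), across all 23153 regions that had a peak in 2 or more libraries. Each library's median over the regions that all 10 libraries cover was first subtracted (centring). That step matters for resistant cells, which had fewer bases under peaks per region across the genome: without it, the median change of all tested regions moved by -0.20 (log2) against parental and by -0.22 against colony. A centred call is thus a change relative to that general narrowing. Counts are given with and without centring, and a domain is called both ways where it passed an adjusted p of 0.05 in the same direction in both fits. The plot of counts by comparison shows how far the split rests on this choice.

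**Figure D1:**
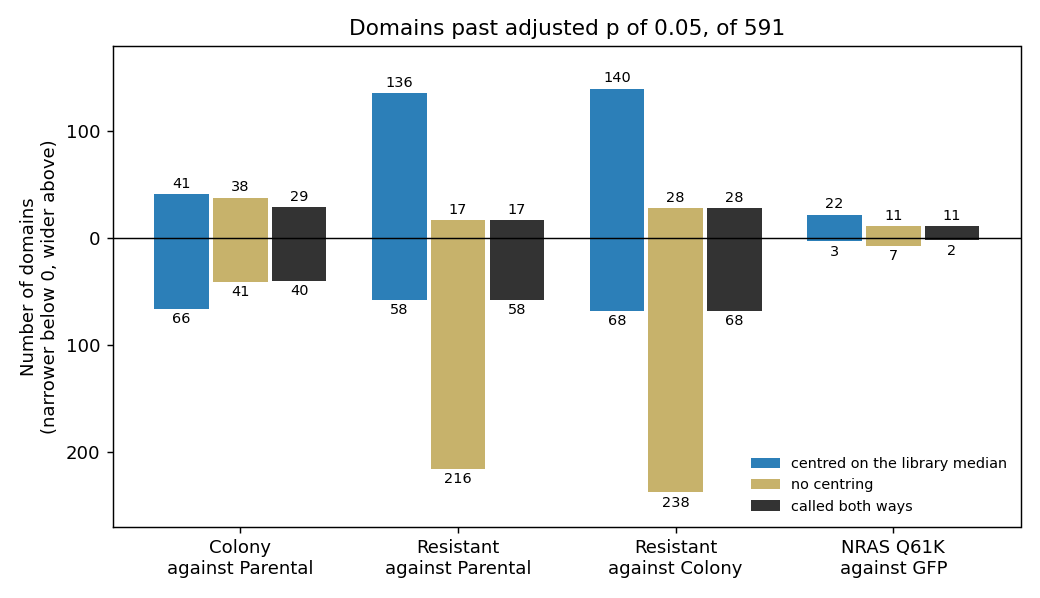
Number of domains of 591 past an adjusted p of 0.05 (limma), wider above 0 and narrower below 0, in 4 comparisons, with centring on the library median, without it, and in both fits. Against parental cells, resistant cells had 136 wider and 58 narrower domains with centring and 17 and 216 without.

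In colonies, domains at the melanocyte receptor EDNRB and the amino acid transporter SLC1A4 lengthened while domains at SPRY4, DUSP6 and SPRED2, feedback inhibitors of ERK signalling, shortened and those at SPRY2, DUSP4 and SPRED1 did not pass the test. Of 591 domains, 41 were wider (6.94%) and 66 narrower (11.2%) in colony than in parental cells, against 4.29% wider and 16.7% narrower among all regions tested. Among the 11496 other regions with a peak in all 10 libraries, 5.72% were wider and 9.24% narrower, so the domains' shares lie near those of other constant regions. Without centring 38 were wider and 41 narrower, against 4.03% and 14.1% of all regions tested, and 29 and 40 were called both ways. The wider count was 20 without colony 1, 26 without colony 2 and 21 without parental 1. In deposited bases both colony libraries exceeded both parental libraries at 206 domains (34.9%, against 29.2% of all regions with a peak in all 10 libraries) and lay below both at 129 (21.8%, against 23.2%). Over all domains the median change was 0.00 (log2), against -0.05 over all regions tested. The minimum length left out 26 regions short in both colony lists alone, against 0 for the parental lists.

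The largest extension in colonies was at 13q22.3 (chromosome 13, 78483740 to 78497014), at EDNRB, the endothelin receptor B of melanocytes and their precursors. It had 11574 and 12430 bp under peaks in colony cells, against 6917 and 7232 bp in parental cells (log2 change 0.72 ± 0.07 SE, limma adjusted p = 0.000289). The resistant libraries had 6074 and 5934 bp and the 4 transgene libraries 6540 to 7162 bp, so both colony libraries stood above all 8 others. In the peak map both ends lay further out in colonies: the lower edge was 5.21 and 6.64 kb from the middle of the domain in colony and 2.70 and 2.68 kb in parental libraries, and the upper edge 6.52 and 6.64 kb in colony and 4.82 and 4.83 kb in parental libraries.

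At 2p14 (chromosome 2, 65211607 to 65227396), at the neutral amino acid transporter SLC1A4, colonies had 13522 and 13077 bp, against 8767 and 8734 bp in parental cells (0.57 ± 0.06, adjusted p = 0.000474), above all other libraries, which had 8478 to 9051 bp. The domain at 22q13.1 (chromosome 22, 38370407 to 38388172), at SOX10, the transcription factor that maintains the melanocyte lineage, had 13618 and 14677 bp in colony cells and 10664 and 10966 bp in parental cells (0.35 ± 0.06, adjusted p = 0.00309), but its adjusted p was 0.0561 when peaks under a −log10 q of 10 were dropped (the stricter peaks). The resistant libraries (11735 and 11948 bp) and the transgene libraries (11412 to 12629 bp) lay between the parental and colony pairs. Resistant cells were also wider than parental cells at SOX10 with centring (0.33, limma adjusted p = 0.0035) but not without (0.13, limma adjusted p = 0.0884).

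Other wider domains among the 10 largest rises were at 13q12.3 (UBL3, a ubiquitin-like protein; 0.38 ± 0.07), 7q22.1 (ZNF655, a zinc finger protein; 0.35 ± 0.05), 2p25.1 (ID2, an inhibitor of DNA binding; 0.35 ± 0.08), 17p13.1 (chromosome 17, 8053595 to 8069196; 0.34 ± 0.07), 8p23.1 (FDFT1, squalene synthase; 0.33 ± 0.05) and 2q22.3 (ZEB2, a transcription factor of melanocytes; 0.33 ± 0.09). Of these 6, only UBL3 stayed past the threshold in all refits. The calls at ZEB2 and 17p13.1 were lost without centring (limma adjusted p = 0.095 and 0.0536), and those at FDFT1 and ZNF655 with the stricter peaks (adjusted p = 0.247 and 0.171). The call at ID2 was lost without colony 1, parental 1 or parental 2 (highest adjusted p = 0.0806), that at ZEB2 also without colony 1, colony 2 or parental 2 (0.154) and that at 17p13.1 also without colony 1 (0.0602).

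**Figure D2:**
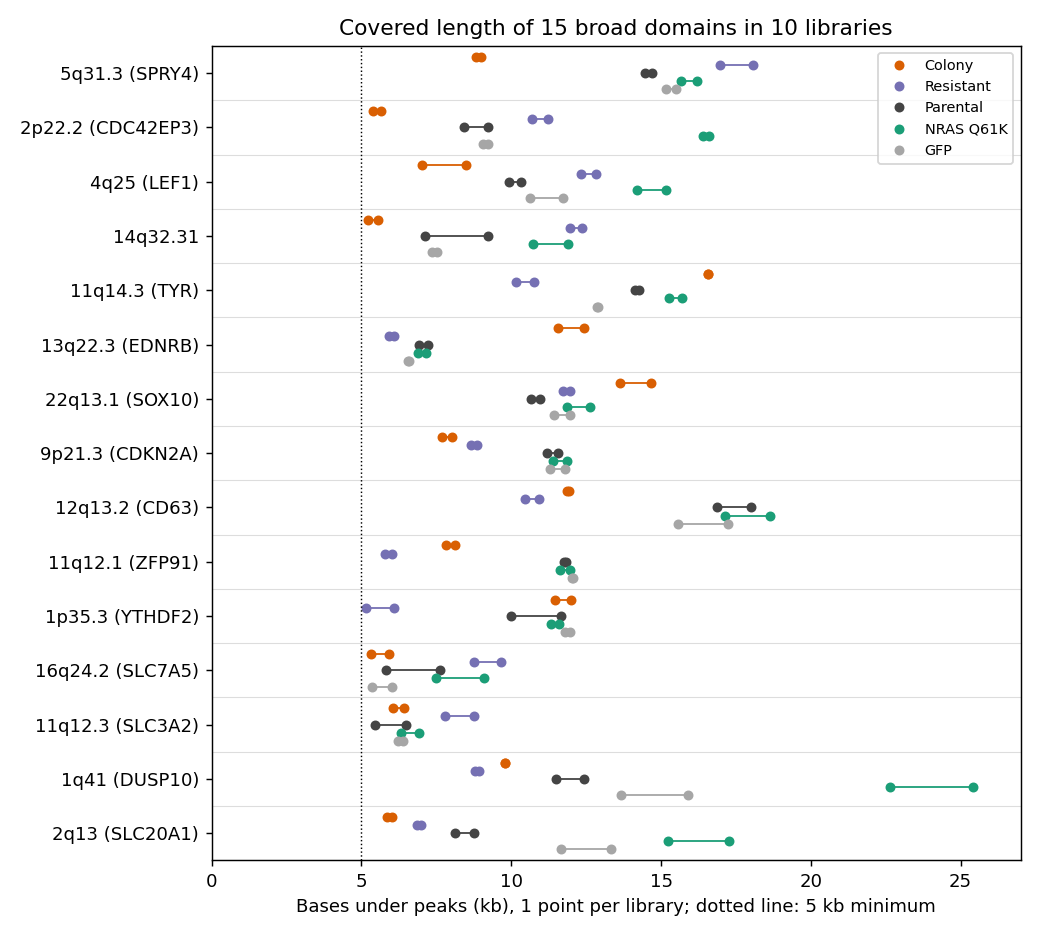
Bases under peaks (kb) in each of 10 libraries at 15 domains, 1 point per library and a line joining the 2 libraries of a group, with the gene locus in parentheses as background. At EDNRB both colony points lie right of all others, and at SPRY4 and CDC42EP3 both lie left of all others.

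The largest shortening in colonies was at 5q31.3 (chromosome 5, 141689561 to 141708023), at SPRY4, a Sprouty protein that is induced by ERK signalling and restrains it. Only 8824 and 8982 bp lay under peaks in colony cells, against 14700 and 14457 bp in parental cells (-0.72 ± 0.04, limma adjusted p = 2.19e-05). All 8 other libraries lay between 14457 and 18065 bp, well apart from the colony pair. Most of the loss was at the lower edge, which was 0.589 and 3.63 kb from the middle in colony and 7.49 and 6.20 kb in parental libraries, while the upper edge was 8.52 and 7.89 kb in colony and 8.90 and 9.06 kb in parental libraries.

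At 2p22.2 (chromosome 2, 37880830 to 37901230), at CDC42EP3, an effector of the CDC42 GTPase that shapes the cytoskeleton, colonies had 5653 and 5377 bp, against 9230 and 8429 bp in parental cells (-0.68 ± 0.05, adjusted p = 8.3e-05). At 9p21.3 (chromosome 9, 21985971 to 21999915), at the tumour suppressor locus CDKN2A, colonies had 7695 and 8037 bp, against 11197 and 11577 bp in parental cells (-0.55 ± 0.05, adjusted p = 0.000325). The outer edges of the CDKN2A domain lay 6.07 to 6.72 kb below and 4.70 to 5.00 kb above its middle in these 4 libraries, and its widest peak was 3966 and 3912 bp in colony and 9786 and 10551 bp in parental libraries. Resistant cells had 8852 and 8647 bp at CDKN2A, also narrower than parental cells with centring (-0.18, limma adjusted p = 0.0428) and without (-0.37, adjusted p = 0.000572). The centred call was lost with a pseudocount of 50 bp (limma adjusted p = 0.0542). It was also lost without parental 2 (change of -0.09), without resistant 1 (-0.18) and without resistant 2 (-0.17).

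At 12q13.2 (chromosome 12, 56107887 to 56128493), at CD63, a tetraspanin of endosomes and melanosomes, colonies had 11870 and 11942 bp, against 18013 and 16852 bp in parental cells (-0.57 ± 0.04, adjusted p = 0.000104). Other large falls were at 11q12.1 (ZFP91, a zinc finger ubiquitin ligase; -0.58 ± 0.05), 8q21.3 (MMP16, a membrane-bound metalloproteinase; -0.55 ± 0.06), 2q13 (SLC20A1, a phosphate transporter; -0.52 ± 0.06), 3p11.1 (EPHA3, an ephrin receptor; -0.49 ± 0.06) and 14q32.31 (chromosome 14, 102699470 to 102713588; -0.60 ± 0.08). The centromere-side domain at 10q11.21 (-0.66 ± 0.12) completes the 10 largest, with its call lost with the stricter peaks and with lists of equal length (highest adjusted p = 0.142).

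In resistant cells, domains at both subunits of an amino acid transporter, at SPRY4 and at 2 of 3 named HOX loci (HOXA5 and HOXB2, not HOXD13) lengthened with and without centring, and domains at YTHDF2, ZFP91 and pericentromeric repeats shortened. With centring 136 domains were wider (23.0%) and 58 narrower (9.81%) than in parental cells, against 7.93% and 20.6% of all regions tested and 8.76% and 12.6% of other regions with a peak in all 10 libraries. Without centring the split turned to 17 wider and 216 narrower, against 3.81% and 31.4% of all regions. The 17 and the 58 were called both ways. The minimum length left out 226 regions short in both resistant lists alone, against 0 for the parental lists. It acted on the same bases that were tested, so some regions that narrowed in resistant cells are missing. The domains' shares are thus not like for like with those of other regions. The median change of the domains was 0.07 with centring and -0.13 without. In deposited bases, both resistant libraries exceeded both parental libraries at 62 domains (10.5%, against 7.92% of regions with a peak in all 10 libraries) and lay below both at 381 (64.5%, against 60.4%). The wider count was 74, 72 and 73 without resistant 1, resistant 2 and parental 1, and the narrower count 34, 33 and 36 without resistant 1, resistant 2 and parental 2.

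At 16q24.2 (chromosome 16, 87892577 to 87904464), at SLC7A5, the light chain of the large neutral amino acid transporter, resistant cells had 8754 and 9661 bp, against 7619 and 5834 bp in parental cells (0.65 ± 0.12, limma adjusted p = 0.0044). At 11q12.3 (chromosome 11, 62646652 to 62655813), at SLC3A2, the heavy chain of the same transporter, they had 8759 and 7773 bp, against 6479 and 5451 bp in parental cells (0.66 ± 0.06, adjusted p = 0.00016). Neither pair overlapped its parental pair, and colonies had 5925 and 5327 bp at SLC7A5 and 6052 and 6406 bp at SLC3A2. The SLC7A5 call was lost with the stricter peaks (adjusted p = 0.181).

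HSPA5, the main chaperone of the endoplasmic reticulum, lies at 9q33.3 (chromosome 9, 127997434 to 128005495), where resistant cells had 7499 and 7520 bp and parental cells 6111 and 5532 bp (0.55 ± 0.04, adjusted p = 5.56e-05). HOXA5, a homeobox gene of axial patterning, lies at 7p15.2 (chromosome 7, 27172931 to 27191585), with 11871 and 12950 bp in resistant and 9665 and 8609 bp in parental cells (0.63 ± 0.10, adjusted p = 0.00195). A second HOX domain, at 17q21.32 (HOXB2), had 6235 and 6703 bp in resistant and 5563 and 5409 bp in parental cells (0.43 with centring and 0.23 without, both past the threshold). The third HOX locus among the names, HOXD13 at 2q31.1, had 6287 and 5667 bp in resistant and 5964 and 5803 bp in parental cells (0.22, adjusted p = 0.0186 with centring, and 0.02, adjusted p = 0.915 without). Resistant and parental libraries did not overlap at HOXA5 and HOXB2 but did at HOXD13.

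Other rises among the 10 largest were at 14q32.31 (0.77 ± 0.08), 2p22.2 (CDC42EP3; 0.50 ± 0.05), 4q25 (LEF1; 0.50 ± 0.08), 18q22.3 (TSHZ1, a zinc finger homeobox factor; 0.50 ± 0.05), 13q13.2 (chromosome 13, 34246111 to 34255899; 0.47 ± 0.07) and the 5S ribosomal RNA array at 1q42.13 (0.68 ± 0.10). Each of these passed with and without centring.

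Among the falls, the domain at 1p35.3 (chromosome 1, 29062028 to 29079386), at YTHDF2, a reader of methylated adenosine in messenger RNA, had 6097 and 5162 bp in resistant cells, against 11648 and 9987 bp in parental cells (-0.72 ± 0.07, adjusted p = 0.000189). The colony, NRAS Q61K and GFP libraries had 11313 to 12004 bp, so the resistant pair stood apart from all others. At 11q12.1 (chromosome 11, 58338980 to 58351919), at ZFP91, resistant cells had 6004 and 5779 bp, against 11828 and 11746 bp in parental cells (-0.78 ± 0.05, adjusted p = 2.25e-05), with colonies between them at 8121 and 7837 bp. At 17q25.1 (chromosome 17, 72198889 to 72214211), at RPL38, a protein of the large ribosomal subunit, resistant cells had 5790 and 5448 bp, against 11036 and 9438 bp in parental cells (-0.64 ± 0.06, adjusted p = 0.000146).

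The CD63 domain was shorter in resistant cells too, with 10937 and 10446 bp against 18013 and 16852 bp in parental cells (-0.50 ± 0.04, adjusted p = 0.000119). The pericentromeric domains at 10q11.21 (-1.19 ± 0.12) and 16q11.2 (chromosome 16, 46416502 to 46429387; -0.72 ± 0.09) were also among the 10 largest falls, and their reads may come from any copy of the repeat. The other named falls were at 3q26.31 (NLGN1, a synaptic adhesion protein; -0.57 ± 0.05), 3q28 (CCDC50; -0.52 ± 0.05), 2p15 (UGP2, the enzyme that makes UDP-glucose; -0.43 ± 0.06) and 3p25.1 (chromosome 3, 15830381 to 15840852; -0.42 ± 0.04). The call at UGP2 was lost with the stricter peaks (adjusted p = 0.186).

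**Figure D3:**
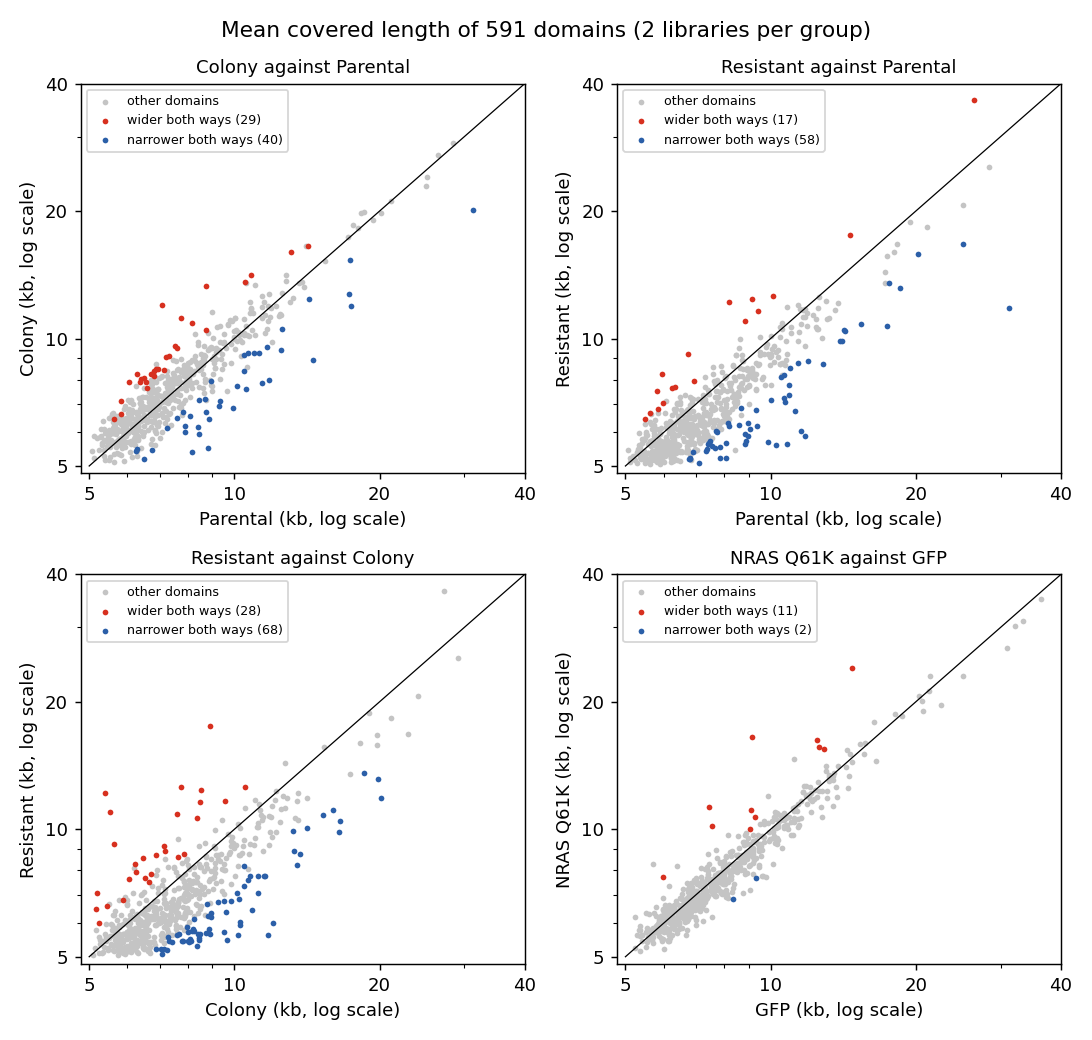
Mean covered length (kb, log scales) of 591 domains in each pair of groups, 2 libraries per group, with the line of equal length. Coloured points were called in the same direction with and without centring, as for the 17 wider and 58 narrower domains in resistant against parental cells.

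Set directly against colonies, resistant cells had longer domains at SPRY4, CDC42EP3, LEF1 and SLC7A5 and shorter ones at EDNRB and YTHDF2. With centring 140 were wider (23.7%) and 68 narrower (11.5%), against 11% and 11.5% of all regions tested and 12.6% and 12.7% of other regions with a peak in all 10 libraries. Without centring 28 were wider and 238 narrower, against 6.13% and 22.9% of all regions, and the 28 and the 68 were called both ways. Without resistant 1 the counts were 88 wider and 44 narrower. In deposited bases both resistant libraries exceeded both colony libraries at 71 domains (12.0%, against 11.9% of regions with a peak in all 10 libraries) and lay below both at 407 (68.9%, against 63%). The minimum length left out 226 regions short in both resistant lists alone and 26 short in both colony lists alone. Here too the domains' shares are not like for like with those of other regions.

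The largest differences were at 14q32.31 (1.37 ± 0.08, limma adjusted p = 1.11e-05), CDC42EP3 (1.19 ± 0.05, adjusted p = 2.84e-06), SPRY4 (1.18 ± 0.04, adjusted p = 1.07e-06) and LEF1 (0.91 ± 0.08, adjusted p = 0.000104). SLC7A5 (0.91 ± 0.12, with an adjusted p of 0.0583 with the stricter peaks), HOXA5 (0.76 ± 0.10), EPHA3 (0.73 ± 0.06), TSHZ1 (0.66 ± 0.05) and 5q35.3 (SQSTM1, an autophagy receptor; 0.66 ± 0.05) followed. The rise of the 5S array (0.65 ± 0.10) was not called without centring (adjusted p = 0.0515). EPHA3 had 11177 and 10599 bp in resistant cells, 7970 and 7228 bp in colony cells and 10717 and 10412 bp in parental cells.

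In the other direction, YTHDF2 (-0.81 ± 0.07) and EDNRB (-0.75 ± 0.07) fell furthest. At 1p32.3 (chromosome 1, 51430630 to 51448984), at CDKN2C, an inhibitor of cyclin-dependent kinases, resistant cells had 9424 and 10269 bp, against 15925 and 17071 bp in colony cells (-0.51 ± 0.06, adjusted p = 0.000567). The other named falls were RPL38 (-0.61 ± 0.06), 16p12.2 (-0.58 ± 0.13), 3p14.1 (chromosome 3, 69126462 to 69139358; -0.55 ± 0.05), 10q11.21 (-0.53 ± 0.12), 16q11.2 (-0.52 ± 0.09), UBL3 (-0.52 ± 0.07) and 3p25.1 (-0.49 ± 0.04). The call at 16p12.2 was lost without any 1 of the 4 libraries (highest adjusted p = 0.0765) and with the stricter peaks (log2 change -0.18, adjusted p = 0.0911). That at 10q11.21 was lost without colony 1, resistant 1 or resistant 2 (highest adjusted p = 0.0941) and with lists of equal length (0.0755).

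At 5 domains, colony and resistant cells moved in opposite directions from their shared parental control and differed from each other, with and without centring. In bases under peaks, SPRY4, CDC42EP3, LEF1 and 14q32.31 were shorter in colony and longer in resistant cells, and TYR was longer in colony and shorter in resistant cells. With centring alone there were 16 such domains, 14 of them shorter in colony and longer in resistant cells. The rule was applied to the domains only, so how often other regions met it was not computed. The SPRY4 domain had 18065 and 16985 bp in resistant cells (0.46 against parental cells with centring and 0.26 without, both past the threshold), so the groups ran in the order colony, parental, resistant with no overlap, and the lower edge was 9.23 and 8.38 kb from the middle in resistant libraries.

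At CDC42EP3, resistant cells had 11233 and 10709 bp and parental cells 9230 and 8429 bp. At 4q25 (chromosome 4, 109076300 to 109095691), at LEF1, a transcription factor of WNT signalling, colonies had 7015 and 8474 bp, resistant cells 12822 and 12340 bp and parental cells 10323 and 9941 bp. LEF1 fell by 0.41 in colony against parental cells (limma adjusted p = 0.00796, and 0.0501 without parental 2). At 14q32.31 colonies had 5217 and 5557 bp, resistant cells 11957 and 12373 bp and parental cells 9232 and 7136 bp. Outer edges at 14q32.31 lay 5.55 to 7.06 kb from the middle in all libraries. The lower edge was nearer the middle in resistant (5.55 and 5.77 kb) than in colony (6.59 and 7.04 kb) or parental libraries (6.73 and 6.60 kb). The upper edge was 6.41 and 6.60 kb in resistant, 6.31 and 6.45 kb in colony and 6.83 and 6.38 kb in parental libraries. Resistant cells thus had more bases under peaks there but no longer distance between outer edges. The domain was 1 unbroken peak in both resistant libraries but 3 and 4 peaks in colony and 4 and 5 in parental libraries.

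TYR, at 11q14.3 (chromosome 11, 88908568 to 88925703), encodes tyrosinase, the first enzyme of melanin synthesis. Its domain had 16570 and 16562 bp in colony cells, 10751 and 10167 bp in resistant cells and 14141 and 14261 bp in parental cells, with no overlap between the groups. Against parental cells the change was 0.19 in colony (limma adjusted p = 0.0237) and -0.24 in resistant cells (adjusted p = 0.00749), the smallest of the 5. The colony call was lost without colony 1, colony 2 or parental 1 (adjusted p = 0.106, 0.0589 and 0.0728) with the stricter peaks (0.0842) and with lists of equal length (0.115), and the resistant call without resistant 2 (0.0628) and with the stricter peaks (0.0778). The upper edge was 8.29 and 8.57 kb from the middle in colony, 3.90 and 3.06 kb in resistant and 7.45 and 6.48 kb in parental libraries. The lower edge moved less, at 8.43 and 8.57 kb in colony, 6.90 and 7.89 kb in resistant and 8.00 and 8.11 kb in parental libraries, also with no overlap.

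**Figure D4:**
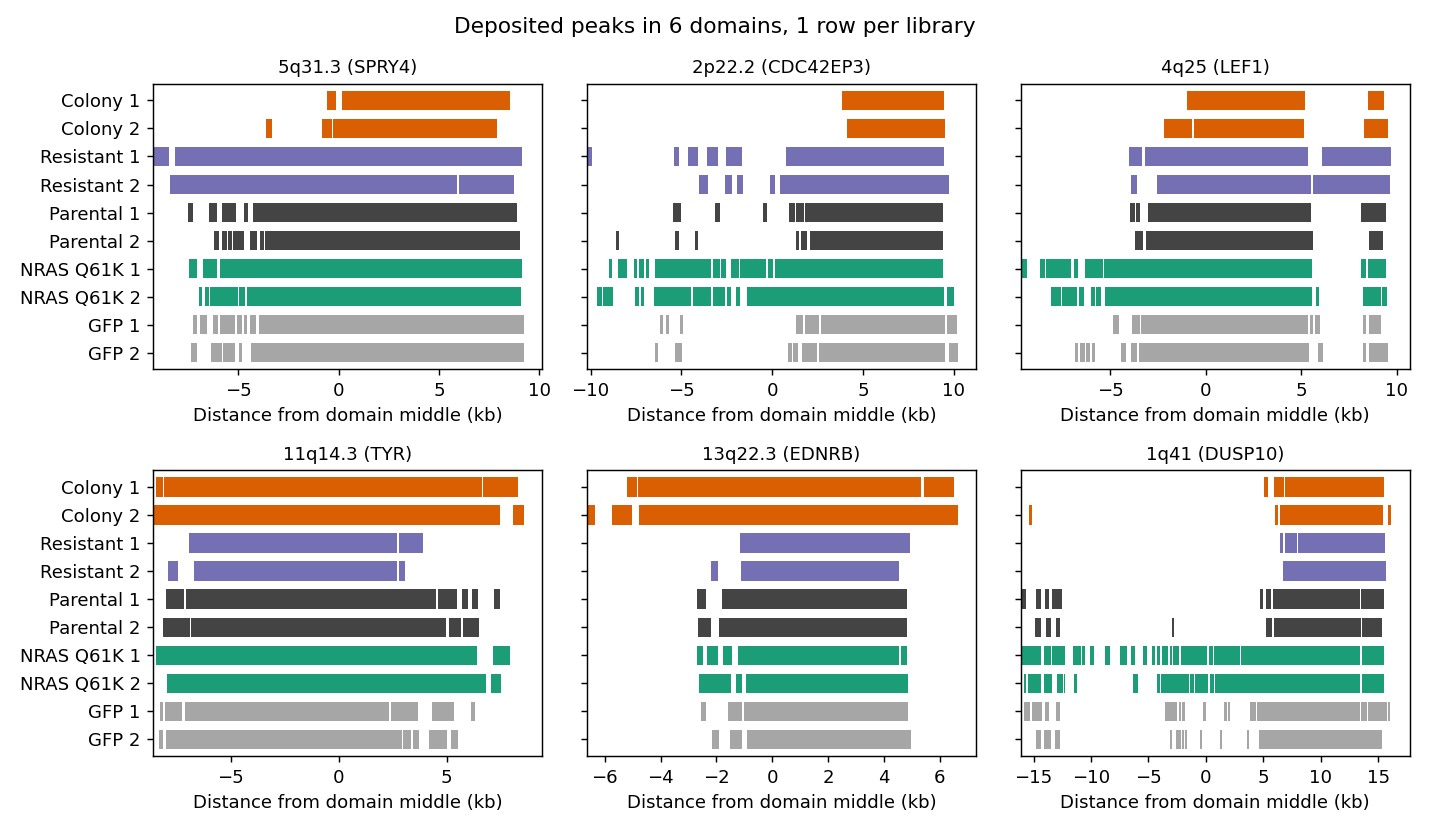
Deposited peaks as bars along 6 domains, with distance from the domain's middle (kb) on the horizontal axis and 1 row per library. The colony rows of SPRY4 and CDC42EP3 end short at the lower side, those of EDNRB reach beyond the rest at both sides, and the bars of DUSP10 sum to 25401 and 22629 bp in the NRAS Q61K rows and to 15892 and 13653 bp in the GFP rows.

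Few domains passed between NRAS Q61K and GFP cells, and the balance of wider and narrower ones depended on centring. Relative to GFP cells 22 domains were wider (3.72%) and 3 narrower (0.508%), against 5.06% and 2.18% of all regions tested and 1.96% and 0.374% of other regions with a peak in all 10 libraries. Without centring 11 were wider and 7 narrower, against 4.05% and 2.29% of all regions, and 11 and 2 were called both ways. The wider count was 11, 8 and 12 without NRAS Q61K 1, NRAS Q61K 2 and GFP 2, and at most 1 narrower domain passed when any 1 library was left out. In deposited bases both NRAS Q61K libraries exceeded both GFP libraries at 107 domains (18.1%, against 17.8% of regions with a peak in all 10 libraries) and lay below both at 205 (34.7%, against 28.4%). The median change over the domains was 0.02, against 0.05 over all regions tested.

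The largest rise was at CDC42EP3, with 16400 and 16587 bp in NRAS Q61K cells, against 9061 and 9238 bp in GFP cells (0.88 ± 0.05, limma adjusted p = 0.000243). The next was at 1q41 (chromosome 1, 221885964 to 221918236), at DUSP10, a phosphatase of the stress-activated MAP kinases, with 25401 and 22629 bp in NRAS Q61K cells, against 15892 and 13653 bp in GFP cells (0.74 ± 0.06, adjusted p = 0.00149). Both NRAS Q61K libraries exceeded all 8 others at each of these domains. At DUSP10 colonies had 9794 and 9802 bp, resistant cells 8785 and 8928 bp and parental cells 12435 and 11484 bp.

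At 2q13 (chromosome 2, 113397639 to 113419589), at SLC20A1, NRAS Q61K cells had 17257 and 15238 bp, against 13314 and 11665 bp in GFP cells (0.42 ± 0.06, adjusted p = 0.00629). At 8q24.13 (chromosome 8, 126439552 to 126451545), at TRIB1, a pseudokinase that marks proteins for degradation and binds MEK, they had 10523 and 9892 bp, against 7569 and 7532 bp in GFP cells (0.47 ± 0.04, adjusted p = 0.00151). At TYR they had 15684 and 15250 bp, against 12887 and 12859 bp in GFP cells (0.31, adjusted p = 0.00984, and 0.0516 without NRAS Q61K 2). The SLC20A1 call was lost with the stricter peaks and with lists of equal length (highest adjusted p = 0.0905).

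The other named rises were at 14q32.31 (0.63 ± 0.08), SLC7A5 (0.57 ± 0.12), LEF1 (0.44 ± 0.08), 1q23.3 (RXRG, a retinoid receptor; chromosome 1, 165406408 to 165415935; 0.40 ± 0.06), 15q13.3 (chromosome 15, 33430974 to 33448681; 0.35 ± 0.04) and 17q25.1 (CYGB, cytoglobin; 0.33 ± 0.08). Those at SLC7A5, LEF1 and CYGB were not called without centring (adjusted p = 0.102, 0.0509 and 0.205), nor without either NRAS Q61K library or GFP 1, and CYGB also not without GFP 2 (highest adjusted p over all alternatives = 0.242, 0.0964 and 0.445). RXRG was not called without NRAS Q61K 1 (0.0558), and 14q32.31 and 15q13.3 not with the stricter peaks (highest adjusted p = 0.143 and 0.385). The falls were at 15q22.31 (RPL4, a ribosomal protein; -0.29 ± 0.06), 7q22.1 (ZNF655; -0.24 ± 0.05) and 18p11.21 (RNMT, the messenger RNA cap methyltransferase; -0.23 ± 0.04), and RPL4 was not called without centring (adjusted p = 0.096). Each fall was lost without either NRAS Q61K library or GFP 1, and those at RPL4 and ZNF655 also without GFP 2 (highest adjusted p over all alternatives = 0.458 for RPL4, 0.882 for ZNF655 and 0.466 for RNMT).

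Loci of ERK feedback and target genes were not uniform. Of the 12 named here, SPRY4, DUSP6, SPRED2 and ETV1 were narrower in colonies with and without centring, as were 40 of all 591 domains. The 12 were chosen from known genes, so their share was not tested against that of all domains. DUSP6, a phosphatase of ERK at 12q21.33, had 7641 and 9110 bp in colony, 10802 and 10463 bp in resistant and 11036 and 9922 bp in parental cells, and was narrower in colonies both ways (-0.35, adjusted p = 0.00709). SPRED2, an inhibitor of RAS signalling at 2p14, had 7868 and 7993 bp in colony, 8604 and 8217 bp in resistant and 9137 and 8761 bp in parental cells, and was also narrower in colonies (-0.20, adjusted p = 0.00725, but 0.199 with the stricter peaks). ETV1, an ETS transcription factor at 7p21.2, had 8864 and 9599 bp in colony, 8838 and 8197 bp in resistant and 11175 and 10744 bp in parental cells, with a change of -0.27 in colonies (adjusted p = 0.00633, but 0.488 with the stricter peaks and 0.177 with lists of equal length).

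SPRY2, at 13q31.1, did not follow SPRY4: it had 9841 and 10689 bp in colony and 9733 and 9324 bp in parental cells, a change of 0.08 in colonies (adjusted p = 0.309). PHLDA1 (12q21.2) changed by 0.02 in colonies (adjusted p = 0.961), SPRED1 (15q14) by -0.08 (adjusted p = 0.464) and DUSP4 (8p12) by -0.12 (adjusted p = 0.142). Among further ERK target loci, the transcription factor FOS (14q24.3) changed by 0.23 in colonies (adjusted p = 0.0578, and 0.0155 without centring), the transcription factor MYC (8q24.21) by 0.12 (0.165), the cyclin CCND1 (11q13.3) by -0.13 (0.114) and the transcription factor FOSL1 (11q13.1) by -0.22 (0.0865). None of these loci passed in NRAS Q61K against GFP cells, where the changes were 0.05 to 0.15 at all but CCND1 (-0.03) and FOSL1 (-0.11). SPRY4 there had 16190 and 15664 bp in NRAS Q61K cells, against 15508 and 15180 bp in GFP cells.

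Among pigment loci, PMEL, the protein that forms melanosome fibrils, at 12q13.2 (chromosome 12, 56352950 to 56371174), had 15656 and 14844 bp in colony, 11006 and 10637 bp in resistant and 15633 and 15233 bp in parental cells. It was narrower in resistant cells than in parental cells both ways (-0.31, adjusted p = 0.00185). RAB38, a GTPase of melanosome transport at 11q14.2, had 7964 and 8164 bp in colony, 7036 and 6940 bp in resistant and 6588 and 6416 bp in parental cells, wider in colonies both ways (0.28, adjusted p = 0.00248). TFAP2A had 12707 and 12813 bp in colony and 11800 and 11745 bp in parental cells, a change of 0.09 that did not pass (adjusted p = 0.345).

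Outer edges were read at the domains called wider or narrower. The distance between them is the covered bases plus the gaps between peaks. The calls were made on covered bases, so a tie between call and distance is partly built in. Of the 41 domains wider in colonies, 33 had both colony libraries beyond both parental libraries in the distance between outer edges, and 50 of the 66 narrower ones had both below. Over all 12087 regions with a peak in all 10 libraries the shares were 27.1% and 24.2%, and over all domains 27.7% and 22.3%. Of the 58 domains narrower in resistant than in parental cells, 55 had shorter distances between edges in both libraries. Of the 136 called wider with centring, 52 had longer distances and 18 had shorter ones. Shorter distances in resistant cells were common in general. Over all 12087 regions with a peak in all 10 libraries, 7378 had shorter distances in both resistant libraries and 897 had longer ones. Of the 22 wider in NRAS Q61K than in GFP cells, 15 had longer distances, against 13.8% of all regions with a peak in all 10 libraries. With 2 libraries against 2, an exact permutation test of a single domain cannot give a p below 1 in 3, so these counts carry no test.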

How the data were processed

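H3K4me3 ChIP-seq peak lists of 10 libraries (5 groups of 2, grouped by the labels) were analysed, and the 10 input samples were not used here. Per the submitters' processing notes, the tools included MACS2 2.1.2, deepTools 2.5.4, SAMtools and BWA, and the builds were hg19 and GRCh37; their roles are not given there. The authors deposited 1 peak list per library, with a score, a fold enrichment over background, and −log10 p and q values for each peak. These are the authors' own values and were used only to rank or filter peaks within a list. No counts are in the lists, so depth is unknown and no counting interval was given.

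Peaks on the 22 autosomes and X were merged within 1000 bp and bases under peaks were summed per region and library. Log2(bases + 200), centred on each library's median over regions covered in all 10 libraries, was fitted in limma 3.58.1 (R 4.3.3) with 5 group means, an intensity trend and Benjamini-Hochberg adjustment over the 23153 regions that had a peak in 2 or more libraries. The threshold was an adjusted p of 0.05. The script was tested on simulated data. Bands came from circlize 0.4.16, and tables and figures from matplotlib 3.10.9, pandas 2.3.3 and numpy 2.4.6 under Python 3.11.15. Alternatives were no centring, other pseudocounts, merging only overlapping peaks, dropping peaks under a −log10 q of 10, keeping the 19111 strongest peaks of each list, other minimum lengths, regions covered in all libraries, a replicate block and leaving out each library.

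Regions named are the 10 widest, the 10 largest rises and falls per comparison among those past the threshold, and 3 on each side of the minimum. Other loci named were chosen from lists of known genes, and 1 region that the rule names is not reported here. Members, lists and tests were chosen with earlier results of these data known. Gene names come from general knowledge of GRCh37 and not from an annotation. Starts recalled for that build were once compared with GRCh38 starts, which mixes builds; that comparison had been seen when the names were written, but changed no name and gave no value. Gene lists and cell type markers were not counted against the domains, since no GRCh37 annotation was used here.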

Additional observations from a re-analysis of the deposited data

Results flagged for a closer look

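At 5 domains colony and resistant cells moved in opposite directions from the parental libraries, and the direct difference between them passed in limma with and without centring. The difference of resistant minus colony cells in log2 covered length was 1.19 at 2p22.2 (CDC42EP3), 0.91 at 4q25 (LEF1), 1.18 at 5q31.3 (SPRY4), 1.37 at 14q32.31 and -0.43 at 11q14.3 (TYR). The single calls against parental cells at TYR each failed when 1 library was left out, as did the colony call at LEF1 without parental 2. Both comparisons share the 2 parental libraries. The direct difference was part of the choice, and other regions were not counted by this rule. At each of the 5, both resistant libraries lay on the same side of both colony libraries.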

How the results depend on the processing

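The number of domains followed the minimum, at 1357 with at least 4000 bp and 97 with at least 8000 bp, against 591 with 5000 bp. It was 504 with overlapping or touching peaks merged only and 497 when peaks under a −log10 q of 10 were dropped. Without centring, colony cells had 41 narrower domains than parental cells, resistant cells 17 wider and 216 narrower than parental and 28 wider and 238 narrower than colony cells, and NRAS Q61K cells 11 wider and 7 narrower than GFP cells. When peaks under a −log10 q of 10 were dropped, colony cells had 21 wider and 42 narrower and NRAS Q61K cells 11 wider. With lists of equal length, colony cells had 42 narrower, resistant cells 36 narrower than parental, and NRAS Q61K cells 8 wider and 6 narrower. With overlapping or touching peaks merged only, resistant cells had 34 narrower than parental and 42 narrower than colony cells, and NRAS Q61K cells 1 narrower than GFP cells. The causes were not tested.

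Leaving out 1 library at a time gave 20 to 33 wider and 47 to 52 narrower domains in colony against parental, 72 to 122 and 33 to 46 in resistant against parental, 88 to 111 and 44 to 59 in resistant against colony, and 8 to 16 and 0 to 1 in NRAS Q61K against GFP. The wider count was 20, 26 and 21 without colony 1, colony 2 and parental 1. In resistant against parental it was 74, 72 and 73 without resistant 1, resistant 2 and parental 1, and the narrower count 34, 33 and 36 without resistant 1, resistant 2 and parental 2. Against colony, leaving out resistant 1 gave 88 wider and 44 narrower. In NRAS Q61K against GFP the wider count was 11, 8 and 12 without NRAS Q61K 1, NRAS Q61K 2 and GFP 2. The narrower count there was 0 without NRAS Q61K 2 or GFP 1, where limma gave 18 and 23 domains at an unadjusted p under 0.05, and 1 without NRAS Q61K 1 or GFP 2. Where a group kept 1 library, that library was assumed to vary like the other groups.

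After centring, same-numbered replicates did not deviate together across regions, with correlations of -0.05 to 0.04. Centring removes a shift of a whole library, so this check cannot show whether same-numbered replicates share a batch. A fit with the replicate number as a block called 38 wider and 63 narrower domains in colony against parental, 138 and 49 in resistant against parental, 136 and 66 in resistant against colony and 19 and 4 in NRAS Q61K against GFP.

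Of 110 pairs of a called domain and a comparison checked, 67 passed under all 11 alternatives that keep the regions and apply to the pair; merging only overlapping or touching peaks changes the regions and was read in counts alone. Of their 1210 values, 1074 kept direction and call, 134 lost the call and 2 changed sign: when peaks under a −log10 q of 10 were dropped, resistant against parental gave 0.0149 at 1q41 and 0.0193 at 7p21.2. The pairs were the largest changes per comparison, and further named loci that were called both with and without centring. For those further loci the outcome without centring was fixed by the choice. The counts therefore do not describe all called domains. Depth is unknown, and list length, shortest peak and group moved together, so width differences between groups and differences in peak calling cannot be told apart.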
